A study of Mus musculus with 24 samples.

Results

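The dopamine and adrenergic receptors are cell surface receptors for the catecholamines dopamine, noradrenaline and adrenaline. The 9 receptors described here were chosen by name, as 9 of the 33902 transcripts in a table of single-nucleus RNA sequencing (snRNA-seq) counts. They were the D1-like dopamine receptors Drd1 and Drd5, the D2-like dopamine receptor Drd2, the alpha-1 adrenergic receptors Adra1a, Adra1b and Adra1d, the alpha-2 adrenergic receptors Adra2a and Adra2c, and the beta adrenergic receptor Adrb1. The tissue was the microdissected ventral hippocampus of adult male mice, aged 10 to 16 weeks, from the inbred strains B6 (C57BL/6J) and D2 (DBA/2J, labelled DBA), and the labels give no treatment, transgene or deleted gene for either. Each strain had 2 snRNA-seq libraries and 2 libraries of single-nucleus ATAC sequencing (snATAC-seq, which counts fragments at open chromatin), and each library pooled tissue of about 2 animals. The snRNA-seq nuclei were sorted on the neuronal protein NeuN, mostly for neurons, and the snATAC-seq nuclei were not, so the shares of cell types are set in part by the sort. The column names of the tables place a library in a strain and number it 2 or 3, but do not say which labelled replicate it was. The 16 methylation samples of the series were not analysed here.

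Dopamine reaches the hippocampus from midbrain neurons and noradrenaline from the locus coeruleus, so the cells of the hippocampus hold the receptors but not, as a rule, the neurons that make the ligands. D1-like receptors couple to Gs and its relative Golf and raise cyclic AMP, while D2-like and alpha-2 receptors couple to Gi and Go and lower it. Alpha-1 receptors couple to Gq, which activates phospholipase C and releases calcium, and beta receptors couple to Gs. Alpha-2 receptors are also known as autoreceptors on noradrenergic axons, whose transcripts lie in the brainstem and not in hippocampal nuclei.

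The snRNA-seq libraries held 54045991 and 56452272 counts from B6 and 52113610 and 43048686 from D2, in 8707, 7858, 8003 and 6312 nuclei. Counts had been summed by the authors over the nuclei of 17 cell types in each library, and a single column ranged from 139713 counts in CR-CR to 11352265 in Exc-DG. Of the 17 types, 8 were excitatory, 3 inhibitory and 5 glial or vascular, and CR-CR carried the label of Cajal-Retzius cells. Levels are given as counts-per-million values (CPM) of the column total, which compare one receptor between cell types and not one receptor with another. Marker lists were summed in each type as a check on these labels. The lists of microglia, oligodendrocytes, oligodendrocyte precursors, astrocytes, dentate granule cells, CA3 cells, MGE and CGE interneurons and vascular cells were each highest by mean in the type so labelled (NN-MGC, NN-ODC, NN-OPC, NN-Astro, Exc-DG, Exc-CA3, Inh-MGE, Inh-CGE and NN-VLMC). The MGE list led narrowly, at 1807 CPM in Inh-MGE and 1609 CPM in NN-OPC. Its B6 libraries overlapped there (1080 to 1978 and 1583 to 1625 CPM), and its D2 libraries did not (1657 to 2514 and 1610 to 1619 CPM). The entorhinal and subicular list was higher in Exc-Gpc6 (2716 CPM) and Exc-Cdh12 (2003) than in Exc-ENT (1410), and the Lamp5 interneuron list was higher in CR-CR (4143) than in Inh-Lamp5 (1720), so these 2 types did not lead the lists of their labels.

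The genes differ in structure, which bears on what a count of nuclear RNA with introns retained can see. By the GENCODE annotation of mouse build GRCm38 (mm10), Drd5 (chr5:38319367-38322518), Adra2a (chr19:54044151-54048982) and Adra2c (chr5:35278319-35281763) had 1 exon and no intron, and Drd1 (chr13:54051183-54055705) had 2 exons within 4.52 kb. Drd2 spanned 67.6 kb on chr9:49340627-49408177 with 8 exons, and 96.2% of it was intron. Adra1a spanned 136 kb (chr14:66635251-66771168) and Adra1b 127 kb (chr11:43774606-43901210), with 93.6% and 97.3% intron. Adra1d (chr2:131545850-131562283) had 2 exons in 16.4 kb. The longest protein-coding transcript of Adrb1 (chr19:56722199-56733113) had 1 exon, but over its 2 annotated transcripts the gene spanned 10.9 kb, of which 69% was intron. Drd5 overlapped the antisense gene Gm26560 and Adra1d the antisense gene Gm14285. Whether the counting used the strand is not given in the sources used here, so for these 2 receptors reads of the antisense gene cannot be told apart.

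Adra1b had 2 annotated starts that lay far apart, and the sequences before them are shown because the promoter peaks described below sit at one and hardly at the other. The stretches are the 250 bases before each start on the minus strand, read from the RefSeq promoter table of GRCm38.p6, and capitals mark CpG dinucleotides. The internal start (chr11:43836490-43836739) lies in an intron of the long transcript, and all 250 of its bases were in a snATAC-seq peak. The distal start (chr11:43901238-43901487) had 0 of its bases in any peak. For comparison, Drd1 is shown by the 203 bases outside its exons at its outermost start (chr13:54055706-54055908, minus strand).
Adra1b internal start: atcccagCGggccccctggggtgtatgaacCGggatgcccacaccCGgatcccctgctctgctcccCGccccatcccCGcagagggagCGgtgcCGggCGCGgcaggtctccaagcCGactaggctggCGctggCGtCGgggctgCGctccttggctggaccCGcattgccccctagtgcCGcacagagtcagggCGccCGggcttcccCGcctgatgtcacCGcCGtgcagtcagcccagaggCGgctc
Adra1b distal start: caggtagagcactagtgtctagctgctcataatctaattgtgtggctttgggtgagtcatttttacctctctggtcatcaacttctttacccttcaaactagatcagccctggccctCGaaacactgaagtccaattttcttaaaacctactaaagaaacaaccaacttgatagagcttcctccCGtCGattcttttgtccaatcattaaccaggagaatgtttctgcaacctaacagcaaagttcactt
Drd1 outermost start: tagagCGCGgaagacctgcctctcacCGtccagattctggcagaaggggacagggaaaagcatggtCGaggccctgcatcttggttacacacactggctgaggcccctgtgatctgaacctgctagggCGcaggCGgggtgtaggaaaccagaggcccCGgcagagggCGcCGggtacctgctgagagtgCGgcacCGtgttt

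The internal Adra1b stretch held 22 CpG dinucleotides and 72.8% G and C bases, and the distal stretch held 3 CpG and 41.6%. Over 32817 mouse promoters of the table, the median was 6 CpG and 52.4% G and C in a stretch of the same length. The internal start was thus at the 85.2 percentile of CpG number and the distal start at the 29.1 percentile. The Drd1 stretch held 11 CpG in its 203 bases. The table held 7 of the 9 receptors; Adra1a and Adra1d were not among them.

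Each receptor had its own order of cell types, and 3 of the 9 (Drd1, Adra1a and Adra1b) had a highest type in which all 4 libraries lay above every library of every other type. Of all 24691 transcripts with counts in both strains, 18.9% had such a type. With counts taken per 1000 nuclei in place of CPM, 1 receptor (Adra1b) had one, against 11.7% of all. The types had been clustered on the same nuclei, so the levels are a description with no test between types. They are given as the mean ± SD of the 4 libraries (n = 4), with the range of the 4.

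**Figure D1:**
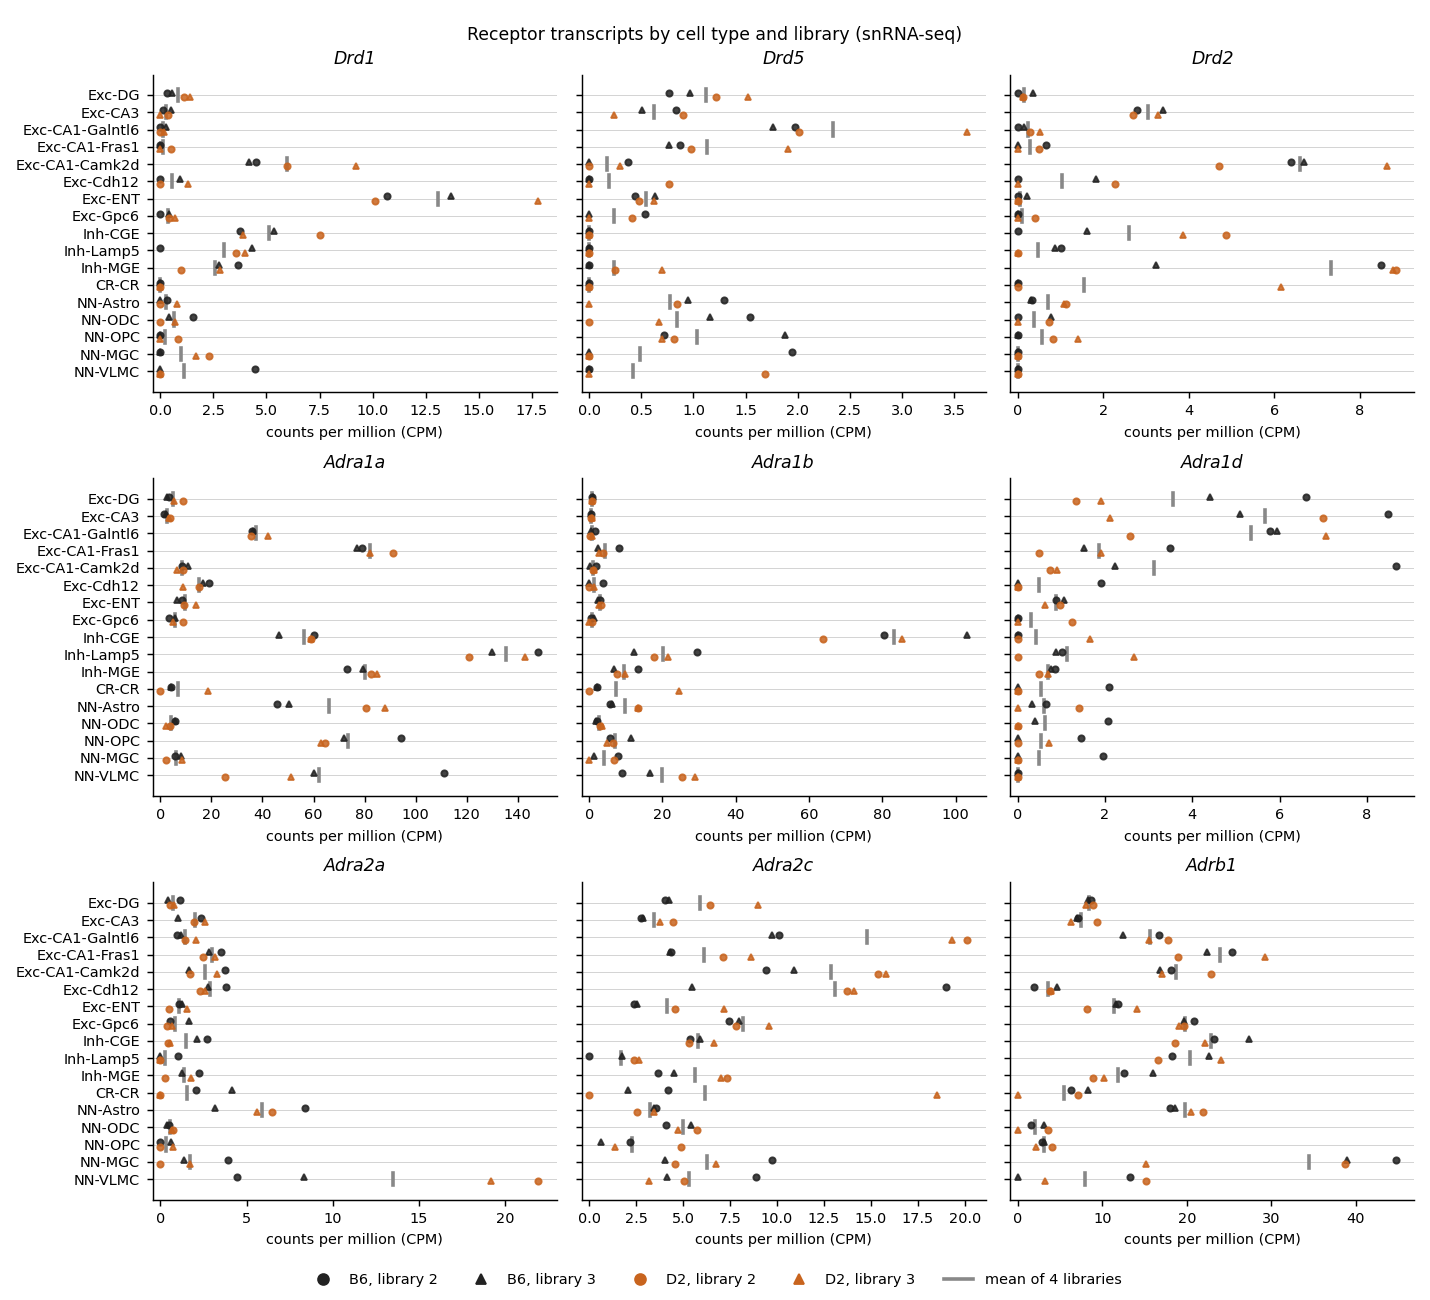
CPM of each receptor (x axis, linear, its own scale in each panel) in 17 cell types (rows) for each of the 4 snRNA-seq libraries (B6 black, D2 orange, circle library 2, triangle library 3), with the mean of the 4 as a grey bar. Adra1a stood at 136 CPM in Inh-Lamp5, Adra1b at 83.2 CPM in Inh-CGE and Drd1 at 13.1 CPM in Exc-ENT, each above all libraries of the other types, while the libraries of Drd5, Adra2a and Adra2c overlapped between their highest types.

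Drd1, the main Gs-coupled dopamine receptor, was a transcript of few counts, with 442 in all 4 libraries and none in 25 of the 68 columns. It was highest in Exc-ENT at 13.1 ± 3.54 CPM (range 10.1 to 17.8), which held 48.2% of its counts and stood 2.19-fold above the next type. Exc-CA1-Camk2d (5.97 ± 2.3 CPM) and Inh-CGE (5.13 ± 1.76 CPM) followed and overlapped. Inh-Lamp5 (2.98 ± 2.01 CPM) and Inh-MGE (2.55 ± 1.13 CPM) came next, so the receptor was above 1 CPM in the 3 inhibitory types and in 2 of the 8 excitatory ones. In Exc-DG, the dentate gyrus granule cells, its level was 0.83 ± 0.51 CPM, and in Exc-CA1-Galntl6 and Exc-CA1-Fras1 it was 0.111 and 0.123 CPM. No count of it fell in CR-CR, which at that depth allows up to 2.37 CPM.

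Drd5, the other D1-like receptor, had the fewest counts of the 9, 180 in all. Its highest type was Exc-CA1-Galntl6 at 2.34 ± 0.862 CPM, whose libraries overlapped those of Exc-CA1-Fras1 (1.13 ± 0.527 CPM), and Exc-DG stood at 1.12 ± 0.326 CPM. Unlike Drd1, it had no count in Inh-CGE or Inh-Lamp5, where its 0 counts allow up to 0.385 and 0.805 CPM. Among the excitatory types, Drd1 was thus highest in Exc-ENT and Exc-CA1-Camk2d and Drd5 in Exc-CA1-Galntl6, while both were counted in Exc-DG, with 30 and 42 counts.

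Drd2, which couples to Gi and is the target of antipsychotic drugs, had 326 counts. It was highest in Inh-MGE at 7.33 ± 2.73 CPM, with 8.49 and 3.24 CPM in the B6 libraries and 8.84 and 8.77 CPM in the D2 libraries. Exc-CA1-Camk2d was close at 6.61 ± 1.61 CPM and lay above Exc-CA3 (3.04 ± 0.355 CPM) in every library. One B6 library thus set the spread of Inh-MGE, and without it the 3 others lay between 8.49 and 8.84 CPM. Drd2 was at 0.148 CPM in Exc-DG and had no count in NN-MGC or NN-VLMC.

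Adra1a had 6532 counts, the most of the 9, and was found in neurons and glia alike. Inh-Lamp5 held 136 ± 12.1 CPM (range 121 to 148), 1.65-fold above the next type. Exc-CA1-Fras1 (82.3 ± 6.19 CPM), Inh-MGE (80 ± 5 CPM), NN-OPC (73.5 ± 14.4 CPM), NN-Astro (66.1 ± 21.1 CPM), NN-VLMC (62 ± 35.9 CPM) and Inh-CGE (56.3 ± 6.51 CPM) formed a run of overlapping types. Exc-CA1-Galntl6 followed at 37.3 ± 3.18 CPM, below every Inh-CGE library and above every library of the remaining types. The lowest were NN-ODC (4.27 ± 1.81 CPM) and Exc-CA3 (2.58 ± 1.15 CPM). Summed over classes, inhibitory neurons held 81 ± 2.4 CPM, glial and vascular nuclei 48.4 ± 9.42 CPM and excitatory neurons 20.1 ± 2.06 CPM, and the 3 CA1 types alone ran from 8.6 CPM in Exc-CA1-Camk2d to 82.3 CPM in Exc-CA1-Fras1.

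Adra1b was the most concentrated receptor: Inh-CGE held 83.2 ± 16.2 CPM (range 63.9 to 103) and 49.3% of its 1299 counts, 4.12-fold above Inh-Lamp5 (20.2 ± 7.21 CPM). NN-VLMC (19.9 ± 8.97 CPM), NN-Astro (9.66 ± 4.17 CPM) and Inh-MGE (9.37 ± 2.93 CPM) followed. The excitatory types were low, at 0.576 ± 0.0865 CPM in Exc-CA3 and 4.21 ± 2.63 CPM in Exc-CA1-Fras1. As classes, inhibitory neurons held 32.9 ± 4.49 CPM and excitatory neurons 1.4 ± 0.485 CPM.

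Adra1d had the opposite distribution, with 3.44 ± 1.51 CPM over excitatory neurons and 0.693 ± 0.429 CPM over inhibitory neurons, in 556 counts. Exc-CA3 (5.67 ± 2.75 CPM), Exc-CA1-Galntl6 (5.34 ± 1.93 CPM), Exc-DG (3.56 ± 2.43 CPM) and Exc-CA1-Camk2d (3.13 ± 3.74 CPM) overlapped one another. In Exc-CA1-Camk2d, 1 B6 library gave 8.66 CPM and the other B6 library 2.23 CPM, against 0.744 and 0.893 CPM in D2. NN-VLMC had no count. The 3 alpha-1 receptors thus had different leading types, which were Lamp5 interneurons, CGE interneurons and hippocampal principal cells in the order Adra1a, Adra1b, Adra1d.

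Adra2a, an alpha-2 receptor, had 376 counts and was highest in NN-VLMC at 13.5 ± 8.42 CPM. That value rests on 24 counts, with 4.44 and 8.32 CPM in B6 and 21.9 and 19.2 CPM in D2, and was under the filter for a strain test. The astrocyte marker sum in NN-VLMC was also high, at 753 to 964 CPM in B6 and 989 to 1126 CPM in D2, and its part in the Adra2a level was not tested. NN-Astro itself held 5.89 ± 2.16 CPM of Adra2a, and no excitatory type exceeded 2.98 CPM (Exc-CA1-Fras1).

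Adra2c had 1404 counts and was spread over excitatory types. Exc-CA1-Galntl6 (14.8 ± 5.65 CPM), Exc-Cdh12 (13.1 ± 5.6 CPM), Exc-CA1-Camk2d (12.9 ± 3.19 CPM) and Exc-Gpc6 (8.19 ± 0.931 CPM) were highest, each overlapping the next in order. In B6 alone Exc-Cdh12 (12.3 CPM) and Exc-CA1-Camk2d (10.2 CPM) were above Exc-CA1-Galntl6 (9.91 CPM), which was highest in D2 (19.7 CPM). Inh-Lamp5 was lowest at 1.7 ± 1.2 CPM. It was counted in each of the 17 types. In contrast to Adra1a and Adra1b, its class levels were 8.02 ± 2.77 CPM in excitatory, 5.11 ± 1.32 CPM in inhibitory and 3.78 ± 0.223 CPM in glial and vascular nuclei.

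Adrb1, the beta receptor that couples to Gs, had 2762 counts and was highest in NN-MGC, the nuclei labelled as microglia, at 34.4 ± 13.1 CPM. The B6 libraries gave 44.7 and 39 CPM and the D2 libraries 38.7 and 15.2 CPM there, so 1 D2 library reached into the range of the next types. Exc-CA1-Fras1 (24 ± 4.41 CPM), Inh-CGE (22.8 ± 3.56 CPM), Inh-Lamp5 (20.4 ± 3.51 CPM), Exc-Gpc6 (19.8 ± 0.708 CPM) and NN-Astro (19.8 ± 1.78 CPM) overlapped one another. The lowest types were NN-OPC (3.05 ± 0.815 CPM) and NN-ODC (2.06 ± 1.63 CPM), while Exc-DG held 8.47 ± 0.345 CPM. Of the 9 receptors it differed least between classes, with 13.1 CPM in excitatory, 16.4 CPM in inhibitory and 13 CPM in glial and vascular nuclei.

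Across the 17 types, the receptors' own patterns were mostly unlike one another. The Pearson correlation of mean log2(CPM + 1) was highest for Adra1a with Adra1b (0.69) and Drd5 with Adra1d (0.59), and lowest for Adra1b with Adra1d (-0.49). Genes most like each receptor were taken from 12403 transcripts that reached 20 CPM in some type. They were Lin28b (0.77), Il1rapl2 (0.75) and Olfm3 (0.72) for Drd1, Gm3235, Wdsub1 and Slc2a9 (0.76 each) for Drd5, and Rabepk (0.74), Gm32647 (0.74) and Gm44601 (0.73) for Drd2. For Adra1a they were Spred3 (0.81), Abat (0.81) and Zfp27 (0.80), for Adra1b Socs5 (0.89), Pde3a (0.87) and Pde5a (0.86), and for Adra1d Gm2762 (0.92), Gm49169 (0.92) and Pkp2 (0.90). Abat makes the enzyme that breaks down GABA, and Pde3a and Pde5a make phosphodiesterases, which break down cyclic nucleotides. Adra2a was most like Tfcp2l1 (0.85), Pdgfrb (0.85), a pericyte marker, and Nr1d1 (0.83), Adra2c most like Gm12128 (0.80), Gm47448 (0.77) and Otof (0.76), and Adrb1 most like Sdad1 (0.77), Frmd4a (0.73) and Ankzf1 (0.73). The points share their 4 libraries and differ in depth, and these values are a description over n = 17 types.

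Chromatin at the receptor genes was read from 12 snATAC-seq peaks within 1000 bases of an annotated start, in 15 cell types. Each receptor had at least 1 such peak, Adra2a had 2, and Adra1b had 3, of which 1 covered the internal start (chr11:43835546-43836752), 1 lay 938 bases from it (chr11:43834285-43835394) and 1 lay inside the gene near the distal start (chr11:43900773-43901043). The distal Adra1b peak held 151 counts over all types and was highest in Exc-CA1-Fras1 at 1.34 ± 1.29 CPM. The internal peak held 2607 counts. In these types the open chromatin of Adra1b was therefore at its CpG-rich internal start, shown above, and hardly at the distal one.

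Peak levels followed the transcript across types to different degrees. For the peak nearest the start, the correlation of mean log2(CPM + 1) with the transcript over the 15 types was 0.93 for Adra1a, 0.83 for Adra1b, 0.81 for Adrb1, 0.80 for Adra1d, 0.72 for Drd1, 0.67 for Drd2, 0.57 for Adra2c, 0.56 for Adra2a and 0.40 for Drd5. Over 8514 other genes the median was 0.54, and Adra1a stood at the 98th percentile of them. These are descriptions over n = 15 types. The authors matched transcript levels in snRNA-seq with snATAC-seq counts over each gene body and the promoter region upstream of it. Promoter accessibility thus entered the matching of the 2 assays, and its part in these correlations was not tested. The snATAC-seq types were named by transfer from the snRNA-seq types, so the 2 sets of labels are not independent.

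**Figure D2:**
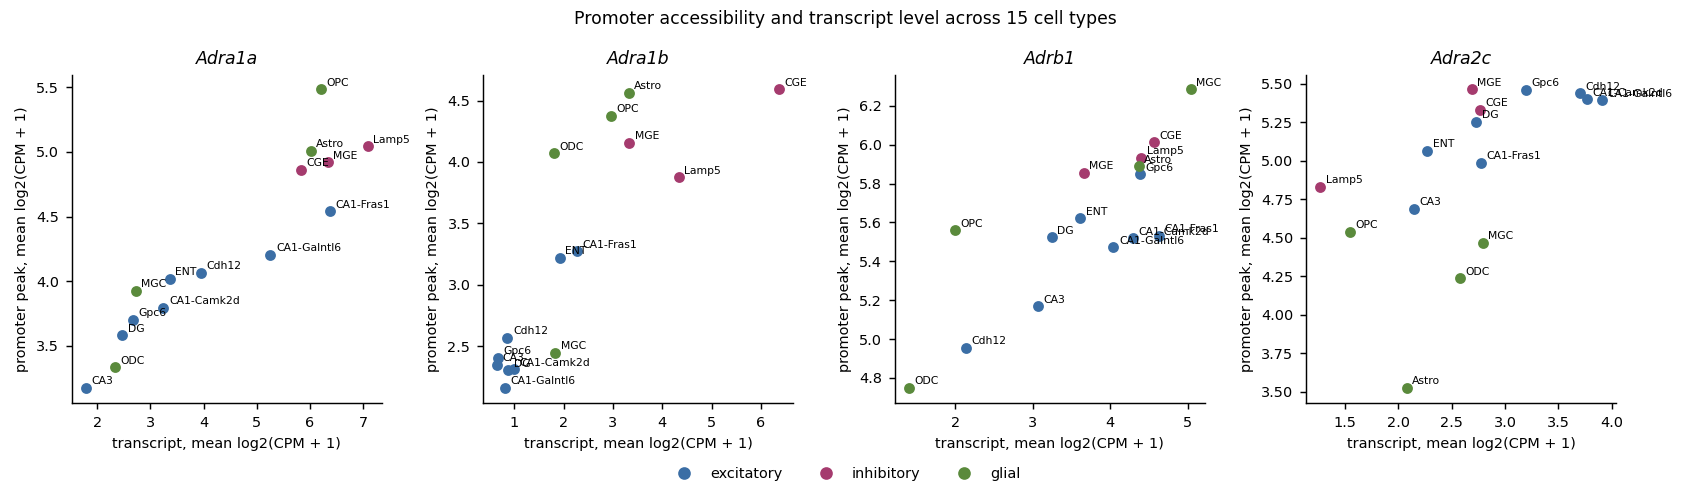
Mean log2(CPM + 1) of the promoter peak in snATAC-seq (y axis) against that of the transcript in snRNA-seq (x axis), for Adra1a, Adra1b, Adrb1 and Adra2c, with 1 point for each of 15 cell types (blue excitatory, magenta inhibitory, green glial). Adra1a peak and transcript ran together (r = 0.93), and the Adra2c peak was at a like level in most neuronal types (r = 0.57).

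The Adra1a peak (chr14:66634959-66637491) was highest in NN-OPC at 44 ± 5.85 CPM, followed by NN-Astro (32.8 ± 11.7 CPM), Inh-Lamp5 (32.2 ± 3.75 CPM) and Inh-MGE (29.3 ± 1.84 CPM), and lowest in Exc-CA3 (8.07 ± 0.884 CPM), which was also the lowest for the transcript. The Adrb1 peak (chr19:56721044-56723681) was highest in NN-MGC at 77.7 ± 12 CPM, the type that led the transcript. The Drd1 peak (chr13:54054153-54055916) was highest in Exc-ENT at 18.1 ± 1.48 CPM, and the Drd2 peak (chr9:49339986-49340992) in Inh-MGE at 10.5 ± 1.41 CPM, with Inh-CGE at 10.3 ± 1.79 CPM. The leading type was the same in both readouts for 4 of the 9 receptors, namely Adrb1, Drd1, Drd2 and Drd5. It differed for Adra1a, Adra1b, Adra1d, Adra2a and Adra2c, where for Adra2a the leading transcript type, NN-VLMC, was not among the 15 types of the peaks. The internal Adra1b peak stood at 23.1 ± 0.938 CPM in Inh-CGE but also at 23.7 ± 7.9 CPM in NN-Astro and 20.5 ± 7.34 CPM in NN-OPC, where the transcript was at 9.66 and 7.11 CPM. The glial peak levels rest on 14 to 65 nuclei a library in NN-OPC and NN-Astro.

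The second question of the design was whether receptor transcripts differed between B6 and D2 within a cell type. The strain difference was fitted in each type with edgeR's quasi-likelihood test over all transcripts and is given as the log2 fold change of D2 minus B6 with its standard error (SE). Of the 153 pairs of receptor and cell type, 61 passed the filter on low counts, and 9 of those (14.8%) were called at an adjusted p under 0.05, which was 8 higher in D2 and 1 lower. Over all transcripts with counts in both strains, 16.7% of 205063 pairs were called, 7.26% higher in D2 and 9.40% lower. The receptors were therefore called about as often as other transcripts. Their calls were mostly higher in D2, with 3 each from Adra1a and Adra2c, and the types share the same libraries. Of the 61 pairs, 35 had a positive log2 fold change, against 104281 of the 205063. The median was 0.10, against 0.01 for all pairs. Pooled tissue gives 2 libraries per strain, so the p-values measure the spread between pools of animals, and no exact permutation test of 2 against 2 libraries can go below p = 0.33.

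**Figure D3:**
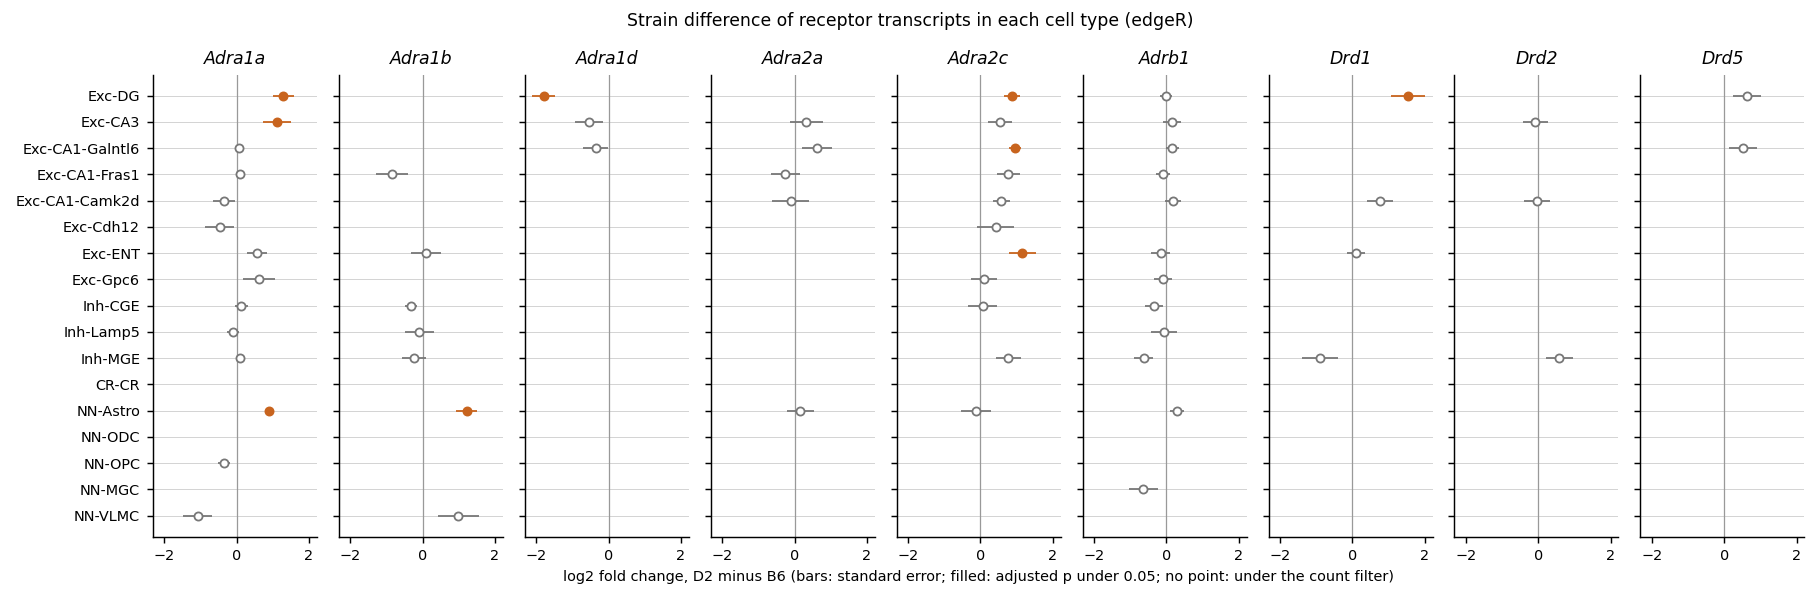
Log2 fold change of D2 minus B6 (x axis) with its SE for each receptor and cell type that passed the count filter, from edgeR, where filled orange points had an adjusted p under 0.05. The 9 filled points belong to Adra1a, Adra1b, Adra1d, Adra2c and Drd1, and the only one to the left of 0 is Adra1d in Exc-DG at -1.79.

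The called pairs fell on 5 receptors, namely Adra1a and Adra2c in 3 types each and Adra1b, Adra1d and Drd1 in 1 type each. Drd2, tested in 3 types, Drd5 in 2, Adra2a in 5 and Adrb1 in 12 had none. By type, 4 of the 6 receptors tested in Exc-DG were called, where 28.1% of all transcripts were called, and 2 of the 5 tested in NN-Astro, where 21.3% were. Among the 9 calls, 4 were also made under every alternative that was run, namely Adra1a in Exc-DG and NN-Astro, Adra1d in Exc-DG and Adra2c in Exc-CA1-Galntl6.

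Adra1a rose in D2 astrocytes. In NN-Astro the B6 libraries held 45.7 and 50.5 CPM and the D2 libraries 80.4 and 87.9 CPM. The groups did not overlap, and the log2 fold change was 0.90 (SE 0.13, edgeR adjusted p = 5.17e-07). The promoter peak of Adra1a in NN-Astro went the other way without overlap, at 39.9 and 45.3 CPM in B6 and 26.1 and 20 CPM in D2 (-0.87, SE 0.37), and did not pass the test (edgeR adjusted p = 0.679). It rests on 14 to 22 counts a library. In Exc-DG the same receptor stood at 3.35 and 2.47 CPM in B6 and at 8.77 and 5.45 CPM in D2 libraries, where the log2 fold change was 1.29 (SE 0.28, edgeR adjusted p = 0.00222). Both D2 libraries were above both B6 libraries, at a level far below that of astrocytes. In Exc-CA3, its lowest type, Adra1a was at 1.25 and 2.04 CPM in B6 and 3.76 and 3.28 CPM in D2 (log2 fold change 1.11, SE 0.39, edgeR adjusted p = 0.0379), a call made in 3 of 10 alternatives and lost on leaving out any 1 library, with log2 fold changes of 0.77 to 1.46 and adjusted p-values from 0.0308 to 0.437.

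Where Adra1a was highest, no strain difference was called. In Inh-Lamp5 the libraries held 148 and 130 CPM in B6 and 121 and 143 CPM in D2 (log2 fold change -0.11, SE 0.16), and in Inh-MGE 73.3 and 79.3 CPM against 82.5 and 84.9 CPM (0.09, SE 0.12). Exc-CA1-Fras1 gave 0.09 (SE 0.11) and Exc-CA1-Galntl6 0.07 (SE 0.11). In NN-OPC the value was -0.36 (SE 0.17, edgeR adjusted p = 0.15) and in NN-VLMC -1.08 (SE 0.40, edgeR adjusted p = 0.0908), both of the opposite sign to astrocytes and short of the threshold. The test that the strain difference itself differed between the 17 types, an interaction of strain and cell type in edgeR, gave F = 5.97 and an adjusted p of 4.47e-07 for Adra1a.

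Of the 8 receptors that could enter that interaction test, Adra1a was the 1 called, where 17.0% of 18759 transcripts were. Adra1b had an adjusted p of 0.115 in edgeR and the other 6 had values from 0.248 to 0.736. Drd5 was under the filter there. The Adra1a call was made in 7 of 7 alternatives, with adjusted p-values from 3.18e-14 to 0.0133, the largest of them among neurons only. Adra1b was called in 3 of 7 alternatives, with adjusted p-values of 0.00495 with at least 10 counts, 0.0391 without B6 library 2 and 0.00359 without B6 library 3, and not in the other 4, with 0.586 without D2 library 3 and 1 among neurons only, so this call depended on the libraries and the filter. Adra1d was called with at least 10 counts (edgeR adjusted p = 0.0157) and without B6 library 3 (0.0198). For Adra2c, called in 3 excitatory types, a difference between types was not shown.

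Adra1b in NN-Astro stood at 5.79 and 6.32 CPM in B6 and 13.2 and 13.3 CPM in D2. The log2 fold change was 1.22 (SE 0.29, edgeR adjusted p = 0.00136), and the call was made in 9 of 10 alternatives but not by DESeq2 (adjusted p = 0.11). Both alpha-1 receptors found in astrocytes were therefore higher in D2 there, while the other 3 receptors tested in that type did not pass, with log2 fold changes of 0.30 (SE 0.20) for Adrb1, 0.16 (SE 0.38) for Adra2a and -0.13 (SE 0.42) for Adra2c. In Inh-CGE, its leading type, Adra1b was at 80.3 and 103 CPM in B6 and 63.9 and 85.2 CPM in D2, and the groups overlapped (log2 fold change -0.33, SE 0.17, edgeR adjusted p = 0.226).

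Adra1d was the 1 receptor lower in D2. In Exc-DG it stood at 6.6 and 4.4 CPM in B6 and at 1.33 and 1.9 CPM in D2. The groups did not overlap, and the log2 fold change was -1.79 (SE 0.32, edgeR adjusted p = 4.55e-04). In the other 2 types tested it was -0.36 (SE 0.34) in Exc-CA1-Galntl6, with a D2 library at 7.07 CPM above both B6 libraries, and -0.54 (SE 0.39) in Exc-CA3, where the groups overlapped as well. Neither passed the test.

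Adra2c was higher in D2 in 10 of the 11 types tested by the sign of its log2 fold change, and 3 of these passed the test. In Exc-CA1-Galntl6 the levels were 10.1 and 9.74 CPM in B6 and 20.1 and 19.3 CPM in D2 (log2 fold change 0.96, SE 0.16, edgeR adjusted p = 1.46e-04). In Exc-DG they were 4.02 and 4.23 CPM against 6.44 and 8.99 CPM (0.87, SE 0.22, edgeR adjusted p = 0.00731), and the call was made in 8 of 10 alternatives, with adjusted p-values from 6.51e-04 to 0.117, and lost with DESeq2 and without D2 library 3, the log2 fold change staying between 0.64 and 1.08. In Exc-ENT they were 2.4 and 2.53 CPM against 4.56 and 7.18 CPM (1.16, SE 0.38, edgeR adjusted p = 0.0201), a call made in 6 of 10 alternatives and lost with DESeq2 and without B6 library 2, B6 library 3 or D2 library 3, with log2 fold changes of 0.84 to 1.47 and adjusted p-values from 0.015 to 0.373. In all 3 types both D2 libraries were above both B6 libraries. The same held, short of the threshold, in Exc-CA1-Camk2d (0.58, SE 0.24), Exc-CA1-Fras1 (0.77, SE 0.32), Inh-MGE (0.77, SE 0.34) and Exc-CA3 (0.53, SE 0.33).

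Drd1 in Exc-DG had 3 and 6 counts in B6 and 10 and 11 counts in D2, which is 0.287 and 0.529 CPM against 1.11 and 1.39 CPM. The log2 fold change of 1.54 (SE 0.47) had an edgeR adjusted p of 0.0192, and the call was lost with DESeq2 and on leaving out any 1 library, with log2 fold changes of 1.20 to 2.03 and adjusted p-values of 0.0194 to 0.362 over the alternatives. In Exc-ENT, where Drd1 was highest, the B6 libraries (10.7 and 13.7 CPM) lay inside the range of the D2 libraries (10.1 and 17.8 CPM), with a log2 fold change of 0.10 (SE 0.25). Exc-CA1-Camk2d gave 0.76 (SE 0.36) and Inh-MGE -0.89 (SE 0.50), and neither passed the test.

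The 4 receptors with no call had small or imprecise differences. For Adrb1 the 12 log2 fold changes ran from -0.64 in NN-MGC, where 1 D2 library at 15.2 CPM stood below the other 3, to 0.30 in NN-Astro, and in Exc-DG it was -0.01 (SE 0.17). In Inh-MGE the Adrb1 value was -0.63 (SE 0.26, edgeR adjusted p = 0.102). Both D2 libraries there (8.84 and 10.2 CPM) lay below both B6 libraries (12.5 and 16 CPM). Drd2 gave 0.58 (SE 0.37) in Inh-MGE, -0.03 (SE 0.36) in Exc-CA1-Camk2d and -0.08 (SE 0.35) in Exc-CA3. Drd5 gave 0.52 (SE 0.38) in Exc-CA1-Galntl6 and 0.62 (SE 0.39) in Exc-DG, and in both types the D2 libraries lay above the B6 libraries without passing the test. Adra2a ran from -0.26 to 0.62. The SEs of Drd2 and Drd5, at 0.35 to 0.39, were larger than the 0.13 of Adra1a in NN-Astro.

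Summed over all nuclei of a library, 4 of the 9 receptors were called, where 36.1% of all transcripts were. Adra2c stood at 5.14 and 5.19 CPM in B6 and at 8.48 and 9.08 CPM in D2 (log2 fold change 0.72, SE 0.12, edgeR adjusted p = 1.47e-04). Adra1d was at 4.35 and 2.64 CPM in B6 and 1.69 and 1.95 CPM in D2 (-0.98, SE 0.23, edgeR adjusted p = 0.00241). Both calls were made in 9 of 9 alternatives. Adra1a (0.24, SE 0.08, edgeR adjusted p = 0.0197) was called in 5 of 9 alternatives and lost without B6 library 3 or either D2 library (0.19 to 0.28), and Drd2 (0.52, SE 0.19, edgeR adjusted p = 0.0419), at 1.33 and 1.28 CPM against 1.84 and 2 CPM, in 3 of 9 and lost on leaving out any 1 library (0.47 to 0.55, adjusted p up to 0.32). The shares of nuclei differed as well, with 12.7% astrocytes in B6 and 15.9% in D2 and 11% oligodendrocytes in B6 and 7.3% in D2, and fewer nuclei of a type cannot be told apart from less RNA per nucleus in these sums.

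Chromatin gave a second readout of the strain difference. Of the 180 pairs of promoter peak and cell type, 154 were tested and 8 (5.19%) were called, 2 higher in D2 and 6 lower, where 2.73% of all peaks were called. Exc-DG, the deepest type, held 4 of these among its 12 peaks, where 5.97% of all peaks were called. The remaining 4 were Adra1d in Exc-ENT and 3 pairs of Adra1b peaks in CA1 types. DESeq2 called 0 of the 154, with 7 at an unadjusted p under 0.05, against 19 at that level in edgeR, so each of the following peak calls rests on edgeR alone.

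**Figure D4:**
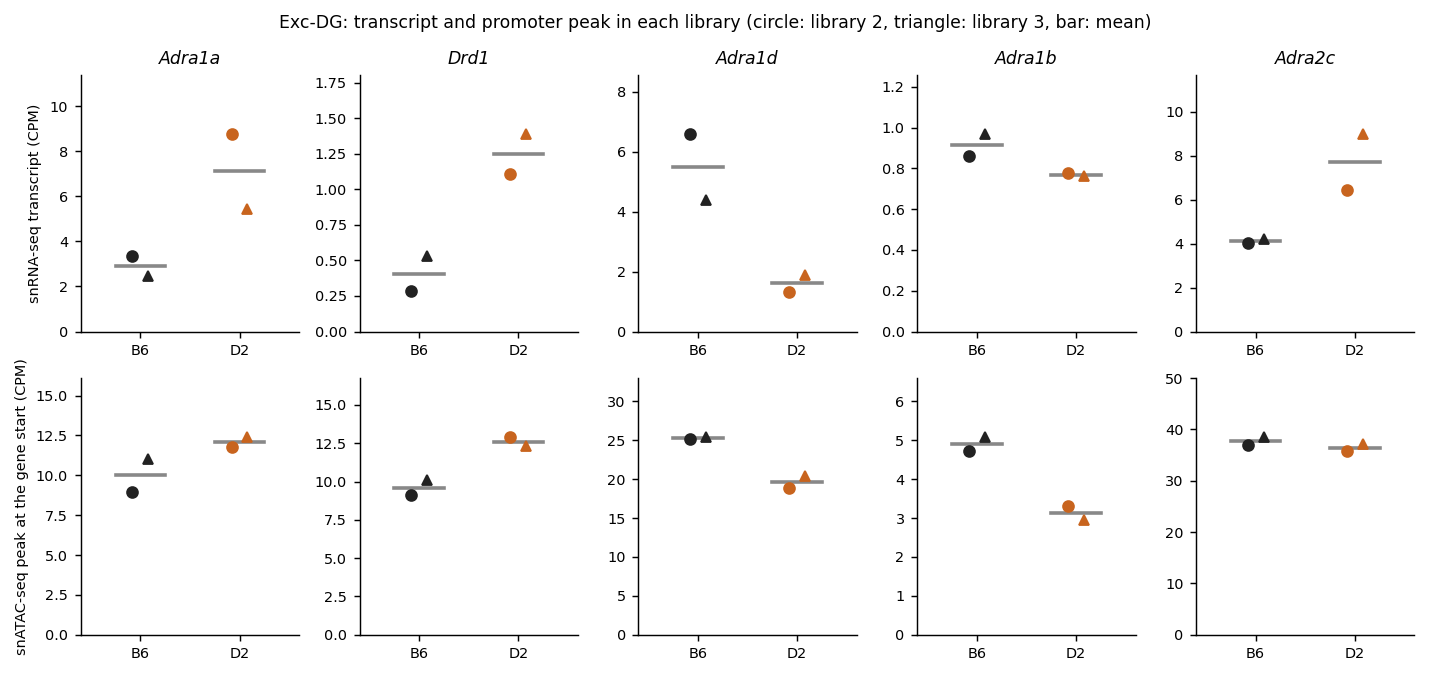
CPM of 5 receptor transcripts (top row, snRNA-seq) and of the peak nearest each start (bottom row, snATAC-seq) in the Exc-DG columns of the B6 (black) and D2 (orange) libraries, with circles for library 2, triangles for library 3 and a grey bar at the mean. Adra1a and Drd1 were higher and Adra1d lower in D2 in both rows, while the Adra2c transcript was higher in D2 at a peak log2 fold change of 0.00.

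In Exc-DG the Drd1 peak held 9.11 and 10.1 CPM in B6 and 12.9 and 12.3 CPM in D2 (log2 fold change 0.44, SE 0.11, edgeR adjusted p = 0.00217), and was not called without B6 library 2. The Adra1d peak held 25.1 and 25.4 CPM in B6 and 18.8 and 20.4 CPM in D2 (-0.31, SE 0.08, edgeR adjusted p = 0.00416), and was not called without either B6 library. The Adra1a peak held 8.98 and 11 CPM in B6 and 11.8 and 12.4 CPM in D2 (0.33, SE 0.11, edgeR adjusted p = 0.0471), a call made in 1 of 8 alternatives and lost without B6 library 2 or either D2 library. Over the alternatives, the log2 fold changes ran from 0.36 to 0.52 for Drd1, from -0.36 to -0.27 for Adra1d and from 0.17 to 0.48 for Adra1a, with adjusted p-values up to 0.228, 0.204 and 0.776. For these 3 receptors the peak moved in the direction of the transcript, and the libraries of the strains did not overlap. The log2 fold change of the peak was the smaller of the 2 in each, as with Adra1d at -0.31 against -1.79.

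The other 2 receptors of Exc-DG showed no such pairing. The internal Adra1b peak was lower in D2, at 4.72 and 5.08 CPM against 3.31 and 2.95 CPM (log2 fold change -0.61, SE 0.17, edgeR adjusted p = 0.0128, and -0.69 to -0.50 with adjusted p-values up to 0.462 over the alternatives, lost without B6 library 3 or D2 library 3), while its transcript was under the filter at 0.769 CPM in D2 and 0.915 CPM in B6. The Adra2c peak had a log2 fold change of 0.00 (SE 0.07), although its transcript was called higher in D2. For the transcript calls outside Exc-DG, no peak of the same receptor was called in the same type. The Adra2c peak gave 0.04 (SE 0.08) in Exc-CA1-Galntl6 and -0.25 (SE 0.11, edgeR adjusted p = 0.45) in Exc-ENT, where both D2 libraries were below both B6 libraries. The Adra1a peak gave -0.21 (SE 0.14) in Exc-CA3 and -0.87 (SE 0.37) in NN-Astro, and the internal Adra1b peak -0.04 (SE 0.44) in NN-Astro. Peak and transcript were thus both called, in the same direction, in 3 of the 9 pairs, all in Exc-DG. How often this held for other genes was not counted. Of these 3, the Adra1a peak was called in 1 of 8 alternatives and the Drd1 transcript in 5 of 10. Outside Exc-DG, the Adra1d peak in Exc-ENT held 11.8 and 13.5 CPM in B6 and 5.91 and 8.59 CPM in D2 (-0.80, SE 0.20, edgeR adjusted p = 0.00934), in a type where its transcript was under the filter. That call was lost without B6 library 3 or D2 library 2, with log2 fold changes of -1.11 to -0.57 and adjusted p-values up to 0.636.

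Of the 9 pairs of Adra1b peak and CA1 type, 3 were called, each lower in D2. Over all peaks, 7283 of 284365 were called in Exc-CA1-Camk2d, 5881 of 269583 in Exc-CA1-Fras1 and 15713 of 298640 in Exc-CA1-Galntl6. In Exc-CA1-Fras1 the internal peak gave -0.69 (SE 0.20, edgeR adjusted p = 0.0235), and the distal peak had 8 and 23 counts in B6 and 5 and 3 counts in D2 (-2.38, SE 0.54, edgeR adjusted p = 0.00101). In Exc-CA1-Galntl6 the distal peak had 12 and 20 counts in B6 and 4 counts in each D2 library (-2.04, SE 0.54, edgeR adjusted p = 0.0054). These 3 pairs had lower values in both D2 libraries than in both B6 libraries by CPM. The distal calls rest on few counts and were lost without B6 library 3 or D2 library 3, with log2 fold changes of -2.85 to -1.62 in Exc-CA1-Fras1 and -2.41 to -1.57 in Exc-CA1-Galntl6, and the internal call was lost without B6 library 2 or either D2 library, at -0.92 to -0.50. Of the 6 pairs not called, the peak at chr11:43834285-43835394 was higher in both D2 libraries in Exc-CA1-Fras1 (0.33, SE 0.22), and the 3 peaks in Exc-CA1-Camk2d gave -0.11 (SE 0.33), -0.61 (SE 0.28) and -1.18 (SE 0.61). D2 reads were mapped to a genome with D2 bases in place, and whether mapping differed at these peaks was not tested.

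Marker lists of other cell types were read beside these calls. In NN-Astro the 4 astrocyte markers summed to 2814 to 3076 CPM in B6 and 2864 to 3090 CPM in D2, and 0 of the 4 were called. The 4 oligodendrocyte markers summed to 194 to 198 CPM in B6 and 75.9 to 86.8 CPM in D2 there, and all 4 were called lower in D2. In Exc-DG the oligodendrocyte sum was 63.9 to 66.9 CPM in B6 and 31.7 to 36 CPM in D2, with 2 of 4 called lower, and the astrocyte sum was 60.1 to 67.5 against 59.3 to 66.1 CPM, with 0 of the 3 tested called. Of the 4 dentate granule markers, 3 (Prox1, C1ql2 and Dsp) were called lower in D2 in Exc-DG itself. In Exc-CA1-Galntl6, where Adra2c was called, the vascular sum was 60.8 to 69.1 CPM in B6 and 114 to 138 CPM in D2, mostly Dcn, and the striatal sum was 29.2 to 32 against 7.02 to 7.24 CPM, mostly Rgs9. Of the 4 CA1 markers there, Wfs1 and Fibcd1 were called lower in D2 and Pou3f1 higher. Their sum was 267 to 282 CPM in B6 and 285 to 309 CPM in D2. The oligodendrocyte sum of that type was 55.3 to 56.7 CPM in B6 and 27.8 to 29.7 CPM in D2, with 3 of 4 called lower. Adra1a itself was at 4.27 CPM in NN-ODC, the type whose markers fell, and 66.1 CPM in NN-Astro. In Exc-CA3 and Exc-ENT the oligodendrocyte sum was also lower in D2 (27.9 to 29.1 against 50.8 to 54.2 CPM, and 33.6 to 36.9 against 69.4 to 75 CPM). The oligodendrocyte precursor sum was 894 to 942 CPM in B6 and 627 to 638 CPM in D2 in Exc-DG (2 of the 3 tested called lower, Tnr and Vcan) and 795 to 834 against 558 to 576 CPM in Exc-CA1-Galntl6 (3 of 4 called lower). In NN-Astro it was 96.3 to 99.7 against 76.2 to 78.9 CPM, with Tnr called lower and Vcan higher. The Lamp5 interneuron sum in NN-Astro was 39.5 to 54 CPM in B6 and 18.9 to 22.8 CPM in D2, with 2 of the 3 tested (Reln and Ndnf) called lower. Both genes are also in the Cajal-Retzius list, whose sum there was 26.2 to 40.8 CPM in B6 and 11 to 13.3 CPM in D2. CR-CR held 309 nuclei in B6 and 91 in D2. Adra1a stood at 136 CPM in Inh-Lamp5, 73.5 CPM in NN-OPC and 6.7 CPM in CR-CR. The part of these lists in the receptor results was not tested.

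The other genes of catecholamine signalling were taken from a list of 55, of which 54 were in the table and 46 were tested in at least 1 type. Of 650 pairs, 101 (15.5%) were called, 24 higher in D2 and 77 lower, against the 16.7% of all transcripts. The count was 48 with DESeq2 and 64 without D2 library 3, and the calls named below are those of edgeR with all libraries. More calls of the list were thus lower in D2, as over all transcripts (9.40% lower and 7.26% higher), while more receptor calls were higher. A gene can be called in many types of the same libraries, as Rgs7 was in 11 and Rgs9 in 8. The list was written with earlier results of these data known, and the contrast between list and receptors was not tested. Drd3, Drd4, Adra2b and Adrb3, the other receptors of the list, were under the filter in every type, as were Th and Dbh, which make the ligands, and their transporters Slc6a2 and Slc6a3.

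**Figure D5:**
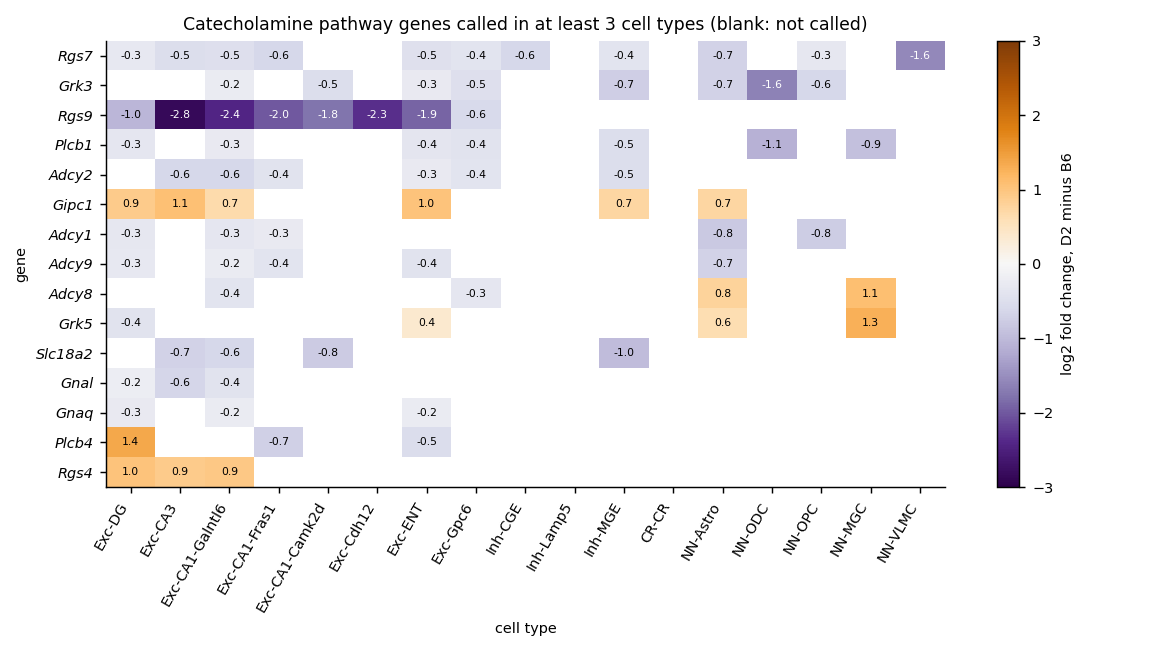
Log2 fold change of D2 minus B6 (colour, number in each cell) for the 15 listed signalling genes (rows) called by edgeR in at least 3 of the 17 cell types (columns), where blank cells were not called. Rgs7 and Rgs9 were lower in D2 in 11 and 8 types, and Gipc1 was higher in 6.

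Among the genes that end or scaffold receptor signalling, 46 of 220 pairs were called, 13 higher and 33 lower. Rgs7, a regulator of Gi and Go signalling, was lower in D2 in 11 of 17 types, from -0.30 in Exc-DG to -1.55 in NN-VLMC. Rgs9, a member of the same family known from the striatum, was lower in 8 of 12 types, by up to -2.84 (SE 0.46, edgeR adjusted p = 8.18e-05) in Exc-CA3. Grk3, a kinase that desensitises receptors, was lower in 8 types, with -0.69 (SE 0.10) in NN-Astro. Gipc1, a scaffold protein that binds receptors of this family, was higher in 6 types (1.06, SE 0.22, in Exc-CA3), and Rgs4 in 3 (1.01, SE 0.24, in Exc-DG). Grk5 was higher in 3 types and lower in Exc-DG (-0.42, SE 0.11).

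Among effectors, 35 of 231 pairs were called, 5 higher and 30 lower. Plcb1, the phospholipase C downstream of Gq and so of the alpha-1 receptors, was lower in D2 in 7 types, with -0.33 (SE 0.06) in Exc-DG. Plcb4, of the same enzyme family, was higher in Exc-DG (1.38, SE 0.21, edgeR adjusted p = 9.69e-05) and lower in Exc-CA1-Fras1 and Exc-ENT. The adenylyl cyclases Adcy2, Adcy1 and Adcy9, which make cyclic AMP, were lower in 6, 5 and 5 types. Adcy8 was lower in Exc-CA1-Galntl6 and Exc-Gpc6 and higher in NN-Astro (0.79, SE 0.11) and NN-MGC (1.09, SE 0.26).

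G protein alpha subunits had 10 of 145 pairs called, 2 higher and 8 lower. Gnaq and Gnal, the alpha subunits of Gq and Golf, were each lower in 3 types, and the called differences were within -0.64 (Gnal in Exc-CA3) and -0.19 (Gnal in Exc-DG). Ligand synthesis, transport and breakdown had 10 of 54 called. Slc18a2, the vesicular monoamine transporter, was lower in D2 in 4 types, most in Inh-MGE (-0.97, SE 0.18, edgeR adjusted p = 5.55e-04). In the dentate granule cells, where Adra1d was lower and Adra1a higher, Gnaq and Plcb1 of the pathway that both receptors use were thus lower and Plcb4 higher, each by its own test.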

How the data were processed

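The raw counts were deposited by the authors as sums for each cell type and library, together with the counts of nuclei. Reads had been mapped by the authors with Cell Ranger 6.0.2 (introns retained) and Cell Ranger ATAC 2.0.0, to mm10 for B6 and to mm10 carrying D2 bases for D2. Doublets had been removed with DoubletFinder, clusters named from markers in Seurat 4.0.5, snATAC-seq peaks called in each sample with MACS and merged, and snATAC-seq types transferred from snRNA-seq. The release of the gene annotation is not given in the sources used here.

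No count column was left unmapped (0), but columns numbered 2 and 3 were placed by strain alone. Of 33902 transcripts, 8204 had counts in D2 only (3.55% of D2 counts) and 960 in B6 only (0.814% of B6 counts), and backgrounds were taken over the 24691 with counts in both. The receptors, gene lists and tests were chosen with earlier results of these data known. Strain was tested in each type with edgeR 4.0.16 (R 4.3.3), with TMM normalization, filterByExpr, the quasi-likelihood F test for strain on the 4 columns and Benjamini-Hochberg adjustment at 0.05, and peaks likewise with at least 10 counts. The SE is the log2 fold change over the root of F. The interaction model held library, cell type and strain by cell type, with 1 dispersion estimated from 4000 transcripts. The biological coefficient of variation, a common value over the transcripts of a type, was 0.057 to 0.149 over types. The median log2 fold change of shared transcripts was at most 0.01 in any type. Precision for the receptors depends on their counts and on the spread between libraries of a strain. Adra1d in Exc-CA3, for example, had 39 and 9 counts (6.99 and 2.11 CPM) in the D2 libraries. Upper limits for 0 counts (3 counts over the total of that type in all 4 libraries) cover counting error only.

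Alternatives were DESeq2 1.42.0 (the test the authors used), RLE normalization, a looser count filter, transcripts shared by the strains, adjustment over all types, a block on library number and leaving out each library. Scripts were tested on simulated data. Named genes were the 9 receptors, listed pathway genes called in at least 3 types (at most 15) and the 3 genes most correlated with each receptor. Gene models came from GENCODE vM21 and promoters from RefSeq GRCm38.p6, both of the build of the files. Python 3.11.15 and matplotlib 3.10.9 were used for levels and plots.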

Additional observations from a re-analysis of the deposited data

Results flagged for a closer look

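The strain difference of Adra1a differed between cell types by the interaction test of strain and cell type in edgeR (adjusted p = 4.47e-07). The log2 fold change of D2 minus B6 was 0.90 (SE 0.13) in NN-Astro and 1.29 (SE 0.28) in Exc-DG, where both D2 libraries were above both B6 libraries, -0.11 (SE 0.16) in Inh-Lamp5 and -1.08 (SE 0.40) in NN-VLMC, where both D2 libraries were below both B6 libraries.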

How the results depend on the processing

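The 9 receptor and cell type pairs called between strains became 4 with DESeq2 and 7 to 10 on leaving out 1 library. The 4 receptors called over all nuclei became 2 with DESeq2 and 2 to 3 without 1 library. The 1 receptor with a called interaction became 3 with a filter of at least 10 counts (Adra1a, Adra1b and Adra1d) and 1 to 3 without 1 library. The 8 called peak pairs became 0 with DESeq2 and 3 to 5 without 1 library. The 3 receptors with a type above all others became 1 per 1000 nuclei and 3 to 4 without 1 library. The 101 pathway pairs became 48 with DESeq2 and 64 to 111 without 1 library. RLE normalization, the looser filter within a type, transcripts shared by the strains, adjustment over all types, at least 30 counts per peak and a window of 200 bases moved none of these counts by over 1.5 times, and no direction turned. The causes of these shifts were not tested.

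With library number as a replicate block, the count of called receptor pairs was 10, of receptors over all nuclei 4, of peak pairs 7 and of pathway pairs 103. Libraries of the same number did not deviate together (correlations of -0.15 to 0.06 in snRNA-seq and -0.04 to 0.07 in snATAC-seq), so the numbers were not read as pairs. In Inh-MGE, the 1 type under -0.1, all transcripts called were 3173, 2981 with the block and 4226 with the numbers crossed, an alternative chosen after seeing the data.

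Depth limits the receptors of few counts most. Of 153 receptor and type pairs, only 61 passed the filter, and nothing is shown for the rest. The strain differences rest on 2 pools per strain, and strain cannot be told apart from anything else that differed between those pools.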
